A study of Mus musculus with 8 samples.

Results

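The endothelial marker genes are a list of 31 genes that mark the cells lining blood vessels, and their RNA was used to follow the endothelium in whole hearts of HVCN1 null mice. The genes were chosen by name, and each was looked up by its mouse symbol through the Ensembl identifier in the deposited counts. All 31 were found among the 39056 genes listed, and all 31 were among the 14796 genes with enough counts to be tested. The samples were hearts of 4 HVCN1-/- mice (HVCN1 null, also labelled Hv1 null) and of 4 wild-type (WT) mice on a C57BL/6 background, all male and 3 months old, with 1 library of poly-A RNA per heart. HVCN1 is a voltage-gated proton channel, and the labels name a knockout of its gene without limiting it to a tissue or cell type, so no cell type of the null hearts can be taken as one that keeps the gene. Hearts are numbered here as null hearts 1 to 4 and WT hearts 5 to 8, in the order of their records. Nothing else is said of their origin, so p-values measure the spread between these hearts.

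Endothelial cells form the inner lining of arteries, capillaries, veins and heart chambers. They are held together by junction proteins, read growth factors such as VEGF and the angiopoietins through surface receptors, and are set into arterial, capillary and venous states by Notch signalling and by ETS and SOXF transcription factors. In the heart, capillaries run beside nearly every muscle cell and pass oxygen, fatty acids and lipoprotein-derived lipid to it, and the endocardium that lines the chambers has markers of its own.

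Since the ETS factor Erg and the SOXF factors Sox7, Sox17 and Sox18 are themselves on the list, the stretch before the start of the markers was searched for words that factors of these families bind. RefSeq promoters on GRCm38.p6, with 250 bases before and 50 after the start, were at hand for 17 of the 31 genes. The word CAGGAAG, read on both strands, was present in promoters of 5 of these 17 genes, which were Egfl7, Emcn, Erg, Rasip1 and Robo4, and of 14.8% of all genes. The word ACAGGAA, which can overlap it, was present for 4 of the 17 (Egfl7, Emcn, Rasip1 and Tie1) and for 9.73% of all genes. The shorter SOX word ACAAT was present for 5 of the 17 and for 34.4% of all genes. Its longer form ACAATG was present for 1 of the 17 and for 14.3% of all genes. The word AGATAA, of GATA type, was present for 2 of the 17 and for 12.7% of all genes. The 17 genes had 23 promoters, beside 32851 promoters for all 27025 genes. These matches describe the letters in the window and are no evidence of binding. Emcn is printed because its upstream bases held the most matches, in capitals, and Dll4 and Eng because they are among the markers with the smallest unadjusted p-values described later and had none of the words. The stretches lie on the + strand at chr3:137340828-137341066 for Emcn, chr2:119325534-119325783 for Dll4 and chr2:32646345-32646594 for Eng, and each ends at the base before the gene.
Emcn: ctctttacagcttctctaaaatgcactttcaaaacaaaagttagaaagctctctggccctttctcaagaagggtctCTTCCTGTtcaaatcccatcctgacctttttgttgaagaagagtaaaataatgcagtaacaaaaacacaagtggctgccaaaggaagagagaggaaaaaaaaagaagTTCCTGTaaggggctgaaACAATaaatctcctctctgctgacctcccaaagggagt
Dll4: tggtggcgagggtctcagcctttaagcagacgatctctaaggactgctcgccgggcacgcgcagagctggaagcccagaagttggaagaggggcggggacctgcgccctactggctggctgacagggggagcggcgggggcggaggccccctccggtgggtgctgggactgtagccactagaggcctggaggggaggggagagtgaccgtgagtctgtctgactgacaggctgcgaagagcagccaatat
Eng: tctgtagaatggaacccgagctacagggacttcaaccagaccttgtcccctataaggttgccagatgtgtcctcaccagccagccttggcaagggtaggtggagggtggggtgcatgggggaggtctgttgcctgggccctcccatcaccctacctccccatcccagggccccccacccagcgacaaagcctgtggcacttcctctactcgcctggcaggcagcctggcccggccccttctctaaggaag
The base composition differed between the sequences, with 40.6% G or C for Emcn, 65.6% for Dll4 and 62.4% for Eng.

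The depth of a library was 25851255 to 36396297 counts for HVCN1 null and 32595114 to 38874640 counts for WT hearts, and a marker had between 262 and 13305 counts in a heart. Values are given as CPM, the count of a gene relative to the total of its library after TMM scaling of the library sizes, and a log2 fold change above 0 means more RNA in HVCN1 null than in WT hearts. Hvcn1 itself had 16 counts over the null hearts and 318 over the WT hearts, with CPM of 0.180, 0.161, 0.0380 and 0.0848 against 2.58, 1.51, 2.62 and 2.30. Hvcn1 had a log2 fold change of -4.20 (SE 0.38, edgeR quasi-likelihood test, adjusted p = 0.000363), in the direction of the labels in each heart. Hearts of both groups differed in atrial RNA. The summed CPM of 10 atrial genes was 431, 4917, 3931 and 468 in the null hearts and 3511, 242, 8995 and 230 in the WT hearts, so null hearts 2 and 3 and WT hearts 5 and 7 held much more of it than the other 4.

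The endothelium was well represented in every heart. The summed CPM of the 31 markers was 3027, 2580, 2766 and 2562 in null hearts (mean 2734 ± 216, SD) and 2902, 2983, 2588 and 2595 in WT hearts (mean 2767 ± 205). The groups overlapped along nearly their whole range. Levels between genes were compared as CPM per kilobase of merged exons in WT hearts. Aqp1, which encodes the water channel of continuous capillaries, was the highest with 113 ± 16.0 (SD, n = 4). It was followed by Eng, a coreceptor for TGF-beta and BMP ligands, with 70.8 ± 8.31, Cdh5, the VE-cadherin of adherens junctions, with 64.5 ± 6.72, and Cav1, the coat protein of caveolae, with 62.0 ± 5.88. The 3 lowest genes were Notch1 with 5.07 ± 0.380, the clearance receptor Npr3 with 3.12 ± 2.27 and Sox17 with 2.75 ± 0.265 CPM per kilobase. Of the exon bases of Sox17, 804 (16.8%) are shared with Gm37587 on the opposite strand. The strand setting of the counting is not known, so the level of Sox17 could be understated. The order was fine-grained. Of 30 neighbouring pairs in it, 27 overlapped between their WT hearts, and the 3 pairs that did not were Aqp1 above Eng, Ly6a above Kdr, and Esam above Rasip1. The plot of levels by gene shows this order with the values of all hearts.

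**Figure D1:**
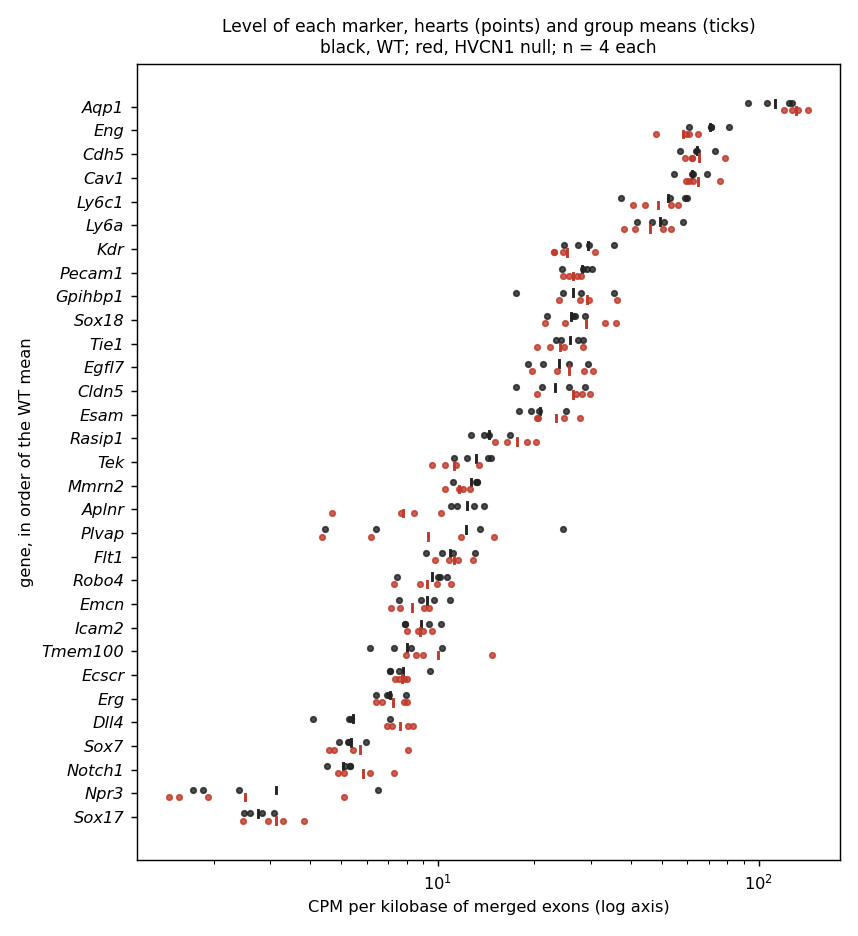
CPM per kilobase of merged exons (log axis) for the 31 endothelial markers, in the order of their WT mean, with WT hearts in black, HVCN1 null hearts in red and ticks at the group means (n = 4 each). Aqp1 stands highest with a WT mean of 113, Sox17 lowest with 2.75, and the red and black points of most genes share their range.

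In the comparison of HVCN1 null with WT hearts, none of the 31 markers was a DEG, that is, a gene with a Benjamini-Hochberg adjusted p under 0.05 over all genes. Over all 14796 genes, 169 (1.14%) were DEGs by edgeR's quasi-likelihood test, 110 (0.743%) higher and 59 (0.399%) lower in HVCN1 null hearts. The 0 of 31 held at an adjusted p under 0.1, which 1.77% of all genes passed, and under 0.01, which 0.378% passed. It also held with edgeR's exact test, its likelihood ratio test and limma voom, which called 367, 376 and 147 of the 14796 genes. DESeq2, which called 3.15% of all genes, called 1 marker, Aplnr. The lowest adjusted p of a marker in the quasi-likelihood test was 0.192.

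Point estimates lay on both sides, with 16 markers higher and 15 lower in HVCN1 null hearts. The median log2 fold change was 0.02, beside -0.01 over all genes tested, and 20 of the 31 markers lay within 0.2 of 0. The 95% interval of the log2 fold change lay inside -0.5 to 0.5 for 19 markers and inside -1 to 1 for 28, the exceptions being Aplnr, Npr3 and Plvap. At an unadjusted p under 0.05 there were 4 markers (12.9%) against 11.0% of all genes. Of the 4, Dll4 and Rasip1 were higher and Aplnr and Eng were lower in HVCN1 null hearts, beside 5.46% of all genes higher and 5.52% lower at that level. The hearts of the groups did not overlap for 1 marker (3.23%), Aplnr, against 7.06% of all genes, 3.6% higher and 3.45% lower. Among the 6981 genes with a mean CPM in the range of the markers, 9.58% passed that unadjusted p and 6.0% did not overlap. The share of the markers at that unadjusted p was thus near these backgrounds, and the share without overlap was under them. In simulated counts for this comparison, tested over 14601 genes, the changed genes were drawn at random from genes of all levels. The quasi-likelihood test recovered 15.2% of them at a log2 change of 0.5 and 69.4% at a log2 change of 1. The share for genes at the level of the markers was not measured, and changes of either size could be missed here. In whole hearts, fewer endothelial cells and less RNA per endothelial cell cannot be told apart.

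**Figure D2:**
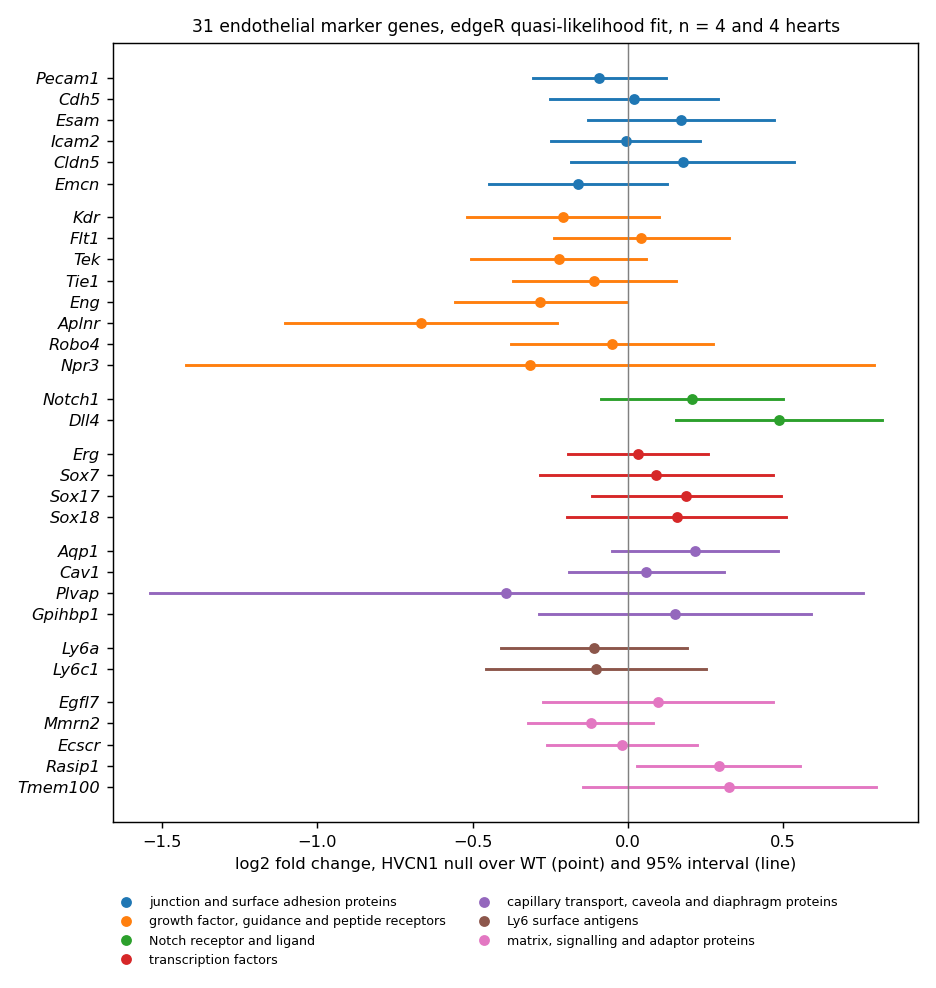
Log2 fold change of each endothelial marker, HVCN1 null over WT, with its 95% interval from edgeR's quasi-likelihood fit (n = 4 and 4), coloured by role. The points lie between -0.67 (Aplnr) and 0.49 (Dll4), and the longest intervals are those of Plvap and Npr3.

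The receptors were the role group that stood lowest, with 7 of 8 lower in HVCN1 null hearts and a median log2 fold change of -0.22. Aplnr encodes the G protein-coupled receptor for the peptides apelin and Elabela, and it lies on chromosome 2 (85136225 to 85139923, GRCm38). Its CPM was 37.9, 17.3, 31.2 and 28.4 in null hearts and 47.8, 51.5, 40.6 and 42.3 in WT hearts. Every null heart was below every WT heart, and null heart 2 was the lowest. The means were 28.7 ± 8.59 and 45.5 ± 4.99 CPM (SD, n = 4), with a log2 fold change of -0.67 (SE 0.20, 95% interval -1.11 to -0.23). With edgeR's quasi-likelihood test the unadjusted p was 0.00673 and the adjusted p 0.192, and an exact permutation test (two-sided, 70 assignments) gave 0.0286, the smallest p possible for 4 against 4. DESeq2 gave an adjusted p of 0.0403, the exact and likelihood ratio tests of edgeR gave 0.0563 and 0.0551, and the adjusted p ranged from 0.0403 to 0.453 over 18 alternatives. The direction was the same in all 18. With library sizes not scaled the groups of Aplnr overlapped, and then Dll4 was the only marker whose groups did not.

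The ligand gene of this receptor, Apln, lay on the other side. Its CPM was 25.8, 15, 23.1 and 22.9 in null hearts and 16.1, 14, 12.8 and 17.9 in WT hearts. Null heart 2, which was also lowest for Aplnr, was within the WT range and the other 3 null hearts were above it. Apln had a log2 fold change of 0.51 (SE 0.17, edgeR quasi-likelihood test, adjusted p = 0.246). Without null heart 2, the lowest of the null hearts for Apln, it was 0.66 with an adjusted p of 0.0440 in the same test. Leaving out that heart raises the difference, and Apln was not called with any other heart left out. The fit without null heart 2 called 152 of 14945 genes. Apela, which encodes Elabela, had 3 counts over the null hearts and 5 over the WT hearts and was not tested.

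Eng encodes endoglin and lies on chromosome 2 (32646595 to 32682669). Its CPM was 245, 263, 240 and 194 in null hearts and 287, 287, 327 and 245 in WT hearts. The groups overlapped through WT heart 8, and null heart 4 was the lowest. The log2 fold change was -0.28 (SE 0.12, 95% interval -0.56 to -0.01), with an unadjusted p of 0.0457 and an adjusted p of 0.436 in edgeR's quasi-likelihood test and an exact permutation p of 0.0857. Of the TGF-beta and BMP ligands, Tgfb1 was at 0.08, Tgfb3 at -0.11, Bmp4 at -0.29, and Bmp6, at -0.42 (SE 0.10), had an adjusted p of 0.103 in that test with no overlap between the groups. DESeq2 and edgeR's exact and likelihood ratio tests called Bmp6. Gdf2, which encodes BMP9, and Bmp10 were not tested for lack of counts in enough hearts.

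The receptors for VEGF and the angiopoietins showed smaller differences. Kdr, the main VEGF receptor for vessel growth, had 280, 207, 208 and 221 CPM in null hearts and 248, 320, 223 and 268 in WT hearts. The groups overlapped, with null heart 1 among the higher hearts, and the log2 fold change was -0.21 (SE 0.14, edgeR adjusted p = 0.698). Tek, the angiopoietin receptor also known as Tie2, had 63.4, 53.8, 45 and 49.6 CPM against 58.0, 69.0, 67.6 and 52.7. Null hearts 1 and 2 were within the WT range, null hearts 3 and 4 were under it, and the log2 fold change was -0.22 (SE 0.13, edgeR adjusted p = 0.600). Tie1, the partner of Tek, was at -0.11, Robo4, a receptor that steadies vessels, at -0.05 and Flt1, which binds VEGF as a decoy, at 0.04. Their 95% intervals reached no further than -0.38 and 0.33. Among their ligands, Vegfa was at -0.02, Vegfb at 0.24, Vegfc at 0.01, Vegfd at -0.41, Pgf at 0.33, Angpt1 at -0.35 and Angpt2 at -0.10 on the log2 scale, and none was a DEG. Slit2 and Slit3, of the family that binds Robo receptors, were at 0.44 and 0.03 and were not DEGs. Of 23 ligand genes of the receptors on the list 19 were tested, with 10 higher and 9 lower and 0 DEGs. At an unadjusted p under 0.05 there was 1 in each direction, beside 5.46% of all genes higher and 5.52% lower. Kdr and Flt1 lie on chromosome 5 like Hvcn1, at 46.2 and 25.3 Mb from it.

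**Figure D3:**
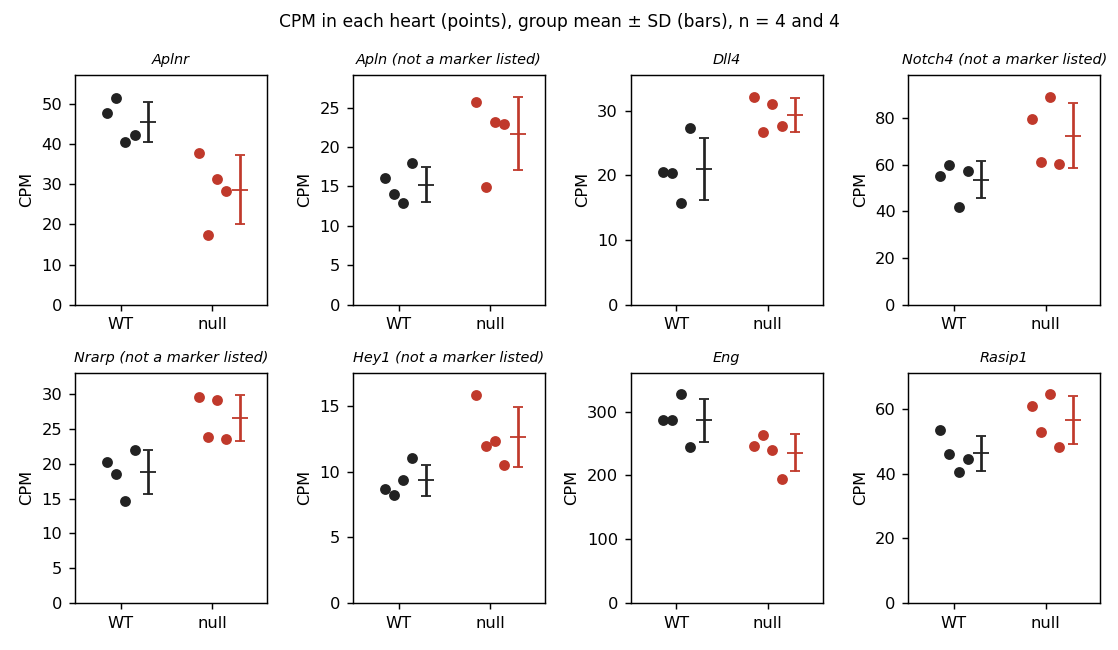
CPM of Aplnr, Apln, Dll4, Notch4, Nrarp, Hey1, Eng and Rasip1 in each heart (points, WT black, HVCN1 null red), with group mean and SD (bars, n = 4 each). The red points of Aplnr all lie under the black ones, and those of Notch4 and Nrarp all lie over them.

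The Notch receptor and ligand on the list were both higher in HVCN1 null hearts. Dll4, a ligand that arterial and sprouting endothelium presents to neighbouring cells, lies on chromosome 2 (119325784 to 119335962). Its CPM was 32.2, 26.7, 31.1 and 27.7 in null hearts and 20.6, 20.4, 15.7 and 27.4 in WT hearts. Only WT heart 8 reached the null range, and WT heart 7 was the lowest. The means were 29.4 ± 2.63 and 21.0 ± 4.84 CPM (SD, n = 4), with a log2 fold change of 0.49 (SE 0.15, 95% interval 0.15 to 0.82). The unadjusted p was 0.00834 and the adjusted p 0.214 in edgeR's quasi-likelihood test, and the exact permutation p was 0.0571. With the atrial score, the mean log2 CPM of the atrial genes, as a covariate, Dll4 was at 0.57 with an adjusted p of 0.0416 and was the only marker called, while that fit called 1.6% of all genes. With the 4 hearts of high atrial RNA set apart from the other 4 as a factor, a choice made after seeing the data, it was at 0.50 with an adjusted p of 0.141, and 0 markers were called beside 1.5% of all genes. The difference was 0.67 among the 4 hearts of high and 0.34 among the 4 of low atrial RNA. Over 18 alternatives the adjusted p of Dll4 ranged from 0.0416 to 0.470. Of its exon bases 214 (5.56%) are shared with Gm14207 on the opposite strand, which had 209 and 190 counts.

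Notch1, a receptor for Dll4 in endothelium and other cells, had 104, 87.3, 72.4 and 69.5 CPM in null hearts and 64.3, 75.6, 72.9 and 76.0 in WT hearts. Null hearts 1 and 2 were above the WT range and null hearts 3 and 4 were within it. Its log2 fold change was 0.21 (SE 0.13, edgeR adjusted p = 0.676). Without null heart 1 it was at 0.08. Of 11 other Notch pathway genes, 9 were higher and 2 lower, and 0 were DEGs. Measured from each gene's mean over the 8 hearts, their median was at 0.31, 0.10, 0.03 and -0.04 on the log2 scale in null hearts 1 to 4. In WT hearts 5 to 8 it was at -0.14, -0.07, -0.16 and -0.01. Of the 11 genes, 10 were above their own mean in null heart 1 and 2 in null heart 4. The summed CPM of null heart 4, 312, was below that of every WT heart (335 to 354). At an unadjusted p under 0.05 there were 4 higher and 1 lower, beside 5.46% and 5.52% of all genes, and 2 did not overlap between the groups, beside 7.06% of all genes. They were the endothelial receptor Notch4, at 0.44 (SE 0.15, edgeR adjusted p = 0.287), and the Notch target Nrarp, at 0.49 (SE 0.13, edgeR adjusted p = 0.146), both higher in every null heart than in any WT heart. Nrarp was called by DESeq2, with an adjusted p of 0.0237, and by edgeR's exact and likelihood ratio tests. The target Hey1 was at 0.44 (SE 0.14, edgeR adjusted p = 0.252). Rbpj, the DNA-binding partner of cleaved Notch, was at -0.42 (SE 0.18, edgeR adjusted p = 0.425). Without null heart 2 it was a DEG at -0.65 with an adjusted p of 0.0330 in that test. It was not a DEG with any other heart left out. The other ligands of Notch1 were at 0.03 for Jag1, 0.20 for Jag2 and 0.11 for Dll1, and none was a DEG. These genes were measured in the same 8 hearts, so they are not independent of one another. Notch3 is also on a list of 10 genes of smooth muscle and pericytes. Of those 10, 9 were above their own mean in null heart 1 and 2 in null heart 4. The contrast between null hearts 1 and 4 was thus not limited to Notch genes.

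The transcription factors were all 4 slightly higher, with a median log2 fold change of 0.12, and each overlapped between the groups. Sox17 was at 0.19 (SE 0.14), Sox18 at 0.16 (SE 0.16), Sox7 at 0.09 (SE 0.17) and Erg at 0.03 (SE 0.10). Null heart 1 was the highest heart for each of the SOXF genes. Sox7 had 26.6 CPM there, against 15.1 to 17.9 in the other null hearts and 16.2 to 19.7 in WT hearts. Without null heart 1 Sox7 was at -0.13. Erg, which keeps endothelial genes active, had 27.3, 23.2, 22.3 and 27.8 CPM in null hearts and 24.5, 27.6, 24.0 and 22.2 in WT hearts, so the groups covered nearly the same range.

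The junction and surface adhesion genes were the flattest group, with 3 higher and 3 lower and a median log2 fold change of 0.01. Pecam1 encodes CD31, which sits at the contacts of endothelial cells and is used to stain vessels. It had 174, 159, 170 and 153 CPM in null hearts and 182, 189, 176 and 152 in WT hearts. The groups overlapped, with a log2 fold change of -0.09 and a 95% interval of -0.31 to 0.12. Cdh5, with 247 to 331 CPM in null and 238 to 307 in WT hearts, was at 0.02 (-0.25 to 0.29), and Icam2, an adhesion molecule bound by leukocytes, at -0.01 (-0.25 to 0.23). Esam, an adhesion molecule of tight junctions, was at 0.17 (-0.13 to 0.47) and Cldn5, their main claudin, at 0.18 (-0.18 to 0.53). Emcn, a mucin-like protein of capillaries and veins, was at -0.16 (-0.45 to 0.13). None of the 6 intervals reached 0.6 in either direction, and for Pecam1 a change of 0.4 lay outside the interval.

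Rasip1, a Ras-interacting protein needed for vessel lumens, was the only 1 of the 5 matrix, signalling and adaptor genes at an unadjusted p under 0.05. It lies on chromosome 7 (45627488 to 45639093) and had 60.8, 52.8, 64.7 and 48.3 CPM in null hearts and 53.6, 46.2, 40.6 and 44.5 in WT hearts. WT heart 5 overlapped with null hearts 2 and 4. The log2 fold change was 0.29 (SE 0.12, 95% interval 0.03 to 0.55), with an unadjusted p of 0.0322 and an adjusted p of 0.387 in edgeR's quasi-likelihood test and an exact permutation p of 0.0857. It shares 20.4% of its exon bases with Izumo1 on the same strand, which had 9 and 27 counts. Egfl7, a secreted protein of the vessel matrix, was at 0.10 (SE 0.17), Mmrn2, an extracellular matrix glycoprotein, at -0.12 (SE 0.09) and Ecscr, a surface protein tied to endothelial chemotaxis, at -0.02 (SE 0.11).

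Of the capillary genes, Aqp1 had 334, 316, 349 and 376 CPM in null hearts and 326, 334, 244 and 280 in WT hearts. WT hearts 7 and 8 lay under the null range and WT hearts 5 and 6 within it, and the log2 fold change was 0.22 (SE 0.12, edgeR adjusted p = 0.591). Gpihbp1 carries lipoprotein lipase to the capillary lumen and had 75.4, 60.9, 92.2 and 70.7 CPM in null hearts against 90.4, 71.2, 44.7 and 62.7 in WT hearts. Its log2 fold change was 0.15 (SE 0.20), and Cav1 was at 0.06 (SE 0.11). The surface antigens Ly6a, also known as Sca-1, and Ly6c1 were at -0.11 (SE 0.14) and -0.10 (SE 0.16). The Ly6c1 transcript is 97.6% identical to Ly6c2 over 822 bases, so its reads could be shared between the copies. Ly6c2 had 66 counts in null hearts and 63 in WT hearts, against 10648 and 12161 for Ly6c1.

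A pair of markers varied from heart to heart much more than the rest. The pooled within-group SD of log2 CPM was 0.97 for Plvap and 0.86 for Npr3, beside a median of 0.21 over the 31 markers, and no other marker exceeded 0.5. Plvap, which forms the diaphragms of fenestrated vessels and caveolae, had 8.68, 29.8, 23.5 and 12.3 CPM in null hearts and 26.9, 12.7, 48.7 and 8.85 in WT hearts. The 4 hearts with high Plvap were the same 4 hearts that were high in atrial RNA, in both groups. Npr3, the receptor that clears natriuretic peptides and is strong in endocardium, had 14.6, 47.8, 18.0 and 13.6 CPM in null hearts and 22.6, 17.4, 61.0 and 16.2 in WT hearts. Null heart 2 and WT heart 7 stood far above the others for Npr3, and they were also the only hearts with much Bmp10, a peptide of the right atrium, at 418 and 574 CPM against 0.0380 to 3.08 in the other 6. Tmem100, a membrane protein induced by BMP signalling, was likewise highest in null heart 2 with 26.0 CPM, against 14.1 to 15.8 in the other null hearts and 10.8 to 18.2 in WT hearts.

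These markers gave the least precise comparisons. The log2 fold change was -0.39 (SE 0.52, 95% interval -1.54 to 0.76) for Plvap, -0.32 (SE 0.50, 95% interval -1.43 to 0.79) for Npr3 and 0.33 (SE 0.21, 95% interval -0.15 to 0.80) for Tmem100. Their adjusted p in edgeR's quasi-likelihood test was 0.890, 0.912 and 0.685. Without WT heart 7 the values of Plvap and Npr3 changed sign, to 0.20 and 0.33, and without null heart 2 that of Tmem100 was 0.08. Of the peptides that Npr3 clears, Nppa was at -0.42 (SE 1.16), with 83.1 to 4629 CPM over the hearts, and Nppb at -0.49 (SE 0.32), while Nppc had 8 counts in each group and was not tested. With the atrial score as a covariate Plvap was at -0.56 with an adjusted p of 0.101 in edgeR's quasi-likelihood test, and with the 4 hearts of high atrial RNA set apart as a factor it was at -0.28 with an adjusted p of 0.709. The junction gene Cdh5 did not follow atrial RNA in this way, with 307 and 268 CPM in the WT hearts of low and 270 and 238 in those of high atrial RNA. Null heart 1, low in atrial RNA, had 331 CPM of Cdh5, and the other null hearts, of low and high atrial RNA, had 247 to 261.

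**Figure D4:**
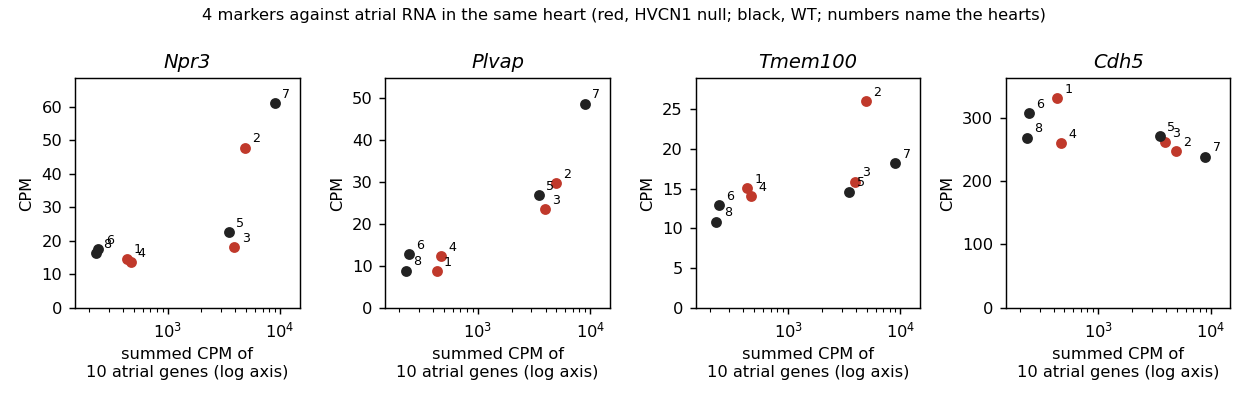
CPM of Npr3, Plvap, Tmem100 and Cdh5 against the summed CPM of 10 atrial genes (log axis) in the same heart, with HVCN1 null hearts in red, WT hearts in black and the heart number beside each point. Plvap is at 23.5 to 48.7 CPM in hearts 2, 3, 5 and 7 and at 8.68 to 12.7 in the others, while hearts 2 and 7 alone stand high for Npr3.

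Over all 31 markers, hearts also differed as wholes within a group. Measured from each gene's mean over the 8 hearts, the median marker was at 0.16, -0.09, 0.03 and -0.12 on the log2 scale in the null hearts and at 0.11, 0.09, -0.15 and -0.12 in the WT hearts. In null heart 1, 26 of 31 markers were above their own mean, and in null heart 4 only 7 were. WT hearts 5 and 6 had 23 and 20 markers above their mean and WT hearts 7 and 8 had 9 and 7. Hearts with high and with low marker levels were thus found in both groups.

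**Figure D5:**
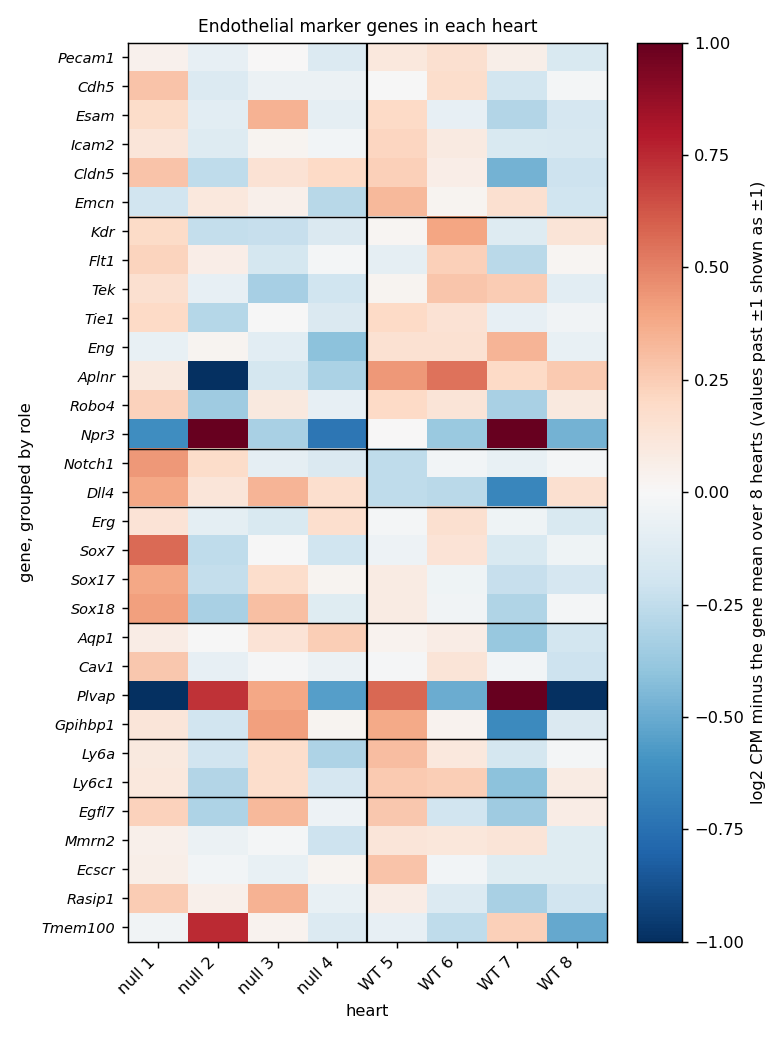
Log2 CPM of each endothelial marker in each heart minus the mean of that gene over the 8 hearts, with genes grouped by role and values past 1 or -1 drawn at that limit. Null heart 1 is red for 26 of 31 genes and WT heart 8 for 7, and Plvap and Npr3 carry the strongest colours.

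Beyond the 31 markers, 104 of 111 genes on lists of other endothelial genes, ligands, Notch signalling, capillary lipid handling and arterial, venous, endocardial and lymphatic identity were tested, with 47 higher and 57 lower in HVCN1 null hearts. Of these 104, 2 were DEGs (1.14% of all genes were), 16 (15.4%) had an unadjusted p under 0.05 beside 11.0% of all genes, and 8 (7.69%) did not overlap between the groups beside 7.06%. Klf4, a transcription factor that endothelium induces under laminar flow and that other cells use too, was upregulated, with 104, 81.8, 72.7 and 59.2 CPM in null hearts and 51.4, 47.5, 45.8 and 42.3 in WT hearts. All null hearts were above all WT hearts. For Klf4 the log2 fold change was 0.77 (SE 0.15, edgeR quasi-likelihood test, adjusted p = 0.0489), and the call was lost without any 1 heart except null heart 4, with library sizes not scaled, with a CPM filter and with voom, with an adjusted p of up to 0.152. Klf2, its partner in flow responses, was at 0.59 (SE 0.17, edgeR adjusted p = 0.173). DESeq2, which called 3.15% of all genes, called Klf2. The quasi-likelihood test called Klf2 without WT heart 5 and with no other heart left out. Of 8 immediate early genes, which respond within minutes to handling and other stimuli, 6 were higher and 0 were DEGs. At an unadjusted p under 0.05 there were 2 higher and 0 lower, beside 5.46% and 5.52% of all genes. The 8 genes had a median log2 fold change of 0.22 and a summed CPM of 207 to 326 in null and 152 to 262 in WT hearts. Their part in the values of Klf4 and Klf2 was not tested. Palmd, another endothelial gene without overlap, was at -0.27 (SE 0.09, edgeR adjusted p = 0.255).

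Angptl4, an inhibitor of the lipoprotein lipase that Gpihbp1 holds on capillaries, was downregulated. Its CPM was 1.95, 6.23, 1.82 and 8.65 in null hearts and 40.8, 44.5, 38.2 and 16.8 in WT hearts. Every null heart was below every WT heart, and WT heart 8 was the lowest of its group. For Angptl4 the log2 fold change was -2.89 (SE 0.49, edgeR quasi-likelihood test, adjusted p = 0.0202). The adjusted p was 0.0536 without null heart 1, 0.0647 without WT heart 5 and 0.0684 without WT heart 6. Lpl itself was at -0.13 and Cd36, a fatty acid receptor of capillaries and muscle, at -0.18, neither of them a DEG. Over the list of capillary lipid handling, 2 of 10 genes were higher and 8 lower. At an unadjusted p under 0.05 there was 1 in each direction, beside 5.46% of all genes higher and 5.52% lower. For 3 genes of the list the groups did not overlap, beside 7.06% of all genes. Beside Angptl4 these were Meox2, a transcription factor of cardiac endothelium, at 0.49 (SE 0.14, edgeR adjusted p = 0.181) and the fatty acid transporter Slc27a4 at -0.04 (SE 0.07). Meox2 was called by DESeq2, which called 3.15% of all genes.

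Markers of other cells were set beside these values. All 10 macrophage genes had lower means in HVCN1 null hearts, with 5 at an unadjusted p under 0.05 (5.52% of all genes were lower at that level) and 0 DEGs, and their summed CPM was 321 to 416 in null and 381 to 558 in WT hearts. Of 8 erythroid genes, 8 were lower, 2 at that level and 0 as DEGs, with summed CPM of 1292 to 8395 against 3020 to 15240. Fibroblast genes had a median log2 fold change of -0.14 and mural genes, of smooth muscle and pericytes, of 0.02, with Acta2 a DEG at 1.32 (SE 0.26, edgeR adjusted p = 0.0466). Ventricular muscle genes had a median of -0.02. No gene of these lists was at 0 counts over the hearts. Their part in the differences of Aplnr, Eng, Dll4 and Rasip1 was not tested.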

How the data were processed

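RNA-seq of 8 mouse hearts was used. The deposited values are raw counts per gene and heart, which the authors made by poly-A selection, paired sequencing, STAR alignment and featureCounts, without normalization. The study's methods name hg38, but the labels name mm10 and GRCm38 and the identifiers are mouse; the strand setting of the counting is not given in the sources used here. Symbols and positions came from GENCODE M21 on GRCm38, which held 38872 (99.5%) of the identifiers. Total counts were 25851255 to 38874640 per heart, and hearts of a group differed by more than counting noise.

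CPM and log2 CPM (prior count 2) were computed with TMM scaling in edgeR 4.0.16 (R 4.3.3). Genes were kept by filterByExpr and tested across all genes by edgeR's quasi-likelihood test with Benjamini-Hochberg adjustment, and single genes also by exact permutation. Alternatives were RLE or no scaling, no filter, a filter of CPM above 1 in 4 hearts or more, the exact test and the likelihood ratio test of edgeR, DESeq2 1.42.0, limma 3.58.1 voom, an atrial score as a covariate, other thresholds and each heart left out. Strata of high and low atrial RNA, at a summed CPM of 1000, were added after seeing the data. Near-identical copies were sought with BLAST at 90% identity over 100 bases. Summaries used pandas 2.3.3 and numpy 2.4.6 under Python 3.11.15, and plots used matplotlib 3.10.9. The test was checked on simulated counts with known changes. The 31 markers, the other gene lists and the roles were chosen with earlier results of these data known. All 31 markers are named, with fuller values for those at an unadjusted p under 0.05, without overlap, among the 10 highest per kilobase in WT hearts or among the 5 of largest log2 fold change. Of the other lists, DEGs, genes without overlap at an unadjusted p under 0.05 and the ligands of the receptors are named. Other genes of those lists that are named, such as Hey1, Rbpj, Klf2, Lpl, Slc27a4, Acta2, Gja5 and Vwf, were chosen after their values were seen.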

Additional observations from a re-analysis of the deposited data

Results flagged for a closer look

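Among 84 groups of 4 hearts, from 42 genes, 6 held a heart that stood apart from the other 3 by more than Dixon's 95% critical value for its gap over the range, a level that chance passes in about 1 in 20 groups. Cdh5 was at 331 CPM in null heart 1, against 247 to 261 in the other null hearts. Npr3 was at 47.8 CPM in null heart 2, against 13.6 to 18.0, and at 61.0 CPM in WT heart 7, against 16.2 to 22.6 in the other WT hearts. Tmem100 was at 26.0 CPM in null heart 2, against 14.1 to 15.8. Mmrn2 was at 44.3 CPM in WT heart 8, below the other WT hearts at 52.2 to 52.6. Meox2, a transcription factor of cardiac endothelium, was at 25.6 CPM in null heart 1, against 18.1 to 19.3. Null heart 2 and WT heart 7 were the hearts with Bmp10 at 418 and 574 CPM, and null heart 1 was the heart with the most markers above their own mean. What sets these hearts apart was not tested.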

How the results depend on the processing

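Under the alternatives, 531 of 558 log2 fold changes of the markers kept their sign and their side of the threshold, and 21 of 31 markers kept their sign throughout. The number of markers called was 1 with DESeq2 (Aplnr), 1 with the atrial score (Dll4) and 0 with each heart left out. DEGs over all genes numbered 466 with DESeq2, 367 with edgeR's exact test, 376 with its likelihood ratio test, 24 and 71 within the strata of high and low atrial RNA, and 71 to 152 with each heart left out (99 without null heart 1, 103 without null heart 3, and 92, 71 and 104 without WT hearts 5, 6 and 8). With the CPM filter they numbered 130 of 12919 genes. Of 14796 genes they numbered 150 with library sizes not scaled and 147 with voom. The counts with DESeq2, the exact test and the likelihood ratio test were also out of 14796 genes. Beside these totals, genes called on the other endothelial lists numbered 6 with DESeq2, 4 with the exact and 4 with the likelihood ratio test. There was 1 each with the CPM filter, with library sizes not scaled and with voom. Within the strata there were 0 and 0, and with each heart left out 0 to 3 (0 without null heart 1 or WT heart 6). Markers without overlap numbered 1 to 5 with each heart left out, with 5 without WT heart 8 beside 10% of all genes, and 2 without null heart 1, null heart 2 or WT heart 5 beside 10.3%, 10.5% and 11.8%. Icam2 changed sign to 0.00365 with DESeq2, 0.00436 with RLE scaling, 0.000824 with the atrial score and 0.0283 with library sizes not scaled, Robo4 to 0.000751 with the atrial score and Ecscr to 0.0147 with library sizes not scaled. With each heart left out, log2 fold changes crossed 0 for Cdh5 (-0.0823 to 0.0843), Icam2 (-0.0553 to 0.0780), Flt1 (-0.0280 to 0.139), Robo4 (-0.150 to 0.0479), Npr3 (-0.932 to 0.332), Erg (-0.0210 to 0.0922), Sox7 (-0.125 to 0.184), Cav1 (-0.0270 to 0.113), Plvap (-0.723 to 0.195) and Ecscr (-0.0595 to 0.0934). The cause of these shifts was not tested. No paired analysis was possible because the sources used here name no pairing of HVCN1 null with WT hearts. With 4 hearts a group and a median SE of 0.14 over the markers, a difference of 0.2 on the log2 scale lies within the error of most markers.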

Other observations

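The subtype lists gave values not described with the markers. Of 8 arterial genes, 3 were higher and 5 lower in HVCN1 null hearts (median log2 fold change -0.02), of 7 venous genes tested 1 was higher and 6 lower (median -0.14), and of 8 lymphatic genes 2 were higher and 6 lower (median -0.17). Of 7 endocardial genes tested, 3 were higher and 4 lower (median -0.06). None of the genes on these lists was a DEG by edgeR's quasi-likelihood test. An unadjusted p under 0.05 was passed by 1 lymphatic gene and by 0 genes of the other lists, beside 11.0% of all genes. Gja5, the connexin of arteries and of atrial muscle, had 8.92, 30.1, 33.4 and 12.8 CPM in null hearts and 28.7, 6.55, 55.6 and 5.91 in WT hearts, with its high values in the 4 hearts of high atrial RNA. The endocardial genes Cytl1 and Tmem108 were highest in null heart 2 (19.8 and 10.8 CPM) and WT heart 7 (22.5 and 12.7 CPM), the hearts that were highest for Npr3, and so was Vwf, the clotting factor carrier of endothelium, with 156 and 191 CPM against 45 to 94.1 in the other 6 hearts. Of the 7 endocardial genes tested, 6 were above their own mean in null heart 2 and 5 in WT heart 7. Nfatc1, an endocardial transcription factor in development, did not follow Cytl1 and Tmem108, with 21.0 to 29.8 CPM over the 8 hearts.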
